A study of Homo sapiens with 4 samples.

Results

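The genes described here encode the TAL1 complex, a set of DNA-binding and adaptor proteins that acts in blood and endothelial precursors, together with the E proteins that pair with TAL1. They were chosen by symbol: TAL1, LYL1, LMO2, LMO4, LDB1, LDB2, TCF3, TCF4 and TCF12, which gave 9 gene rows of 28285 in each table, with 1 row per symbol. RNA sequencing covered 4 libraries from an established embryonic stem cell line of human origin, H1, with enhanced green fluorescent protein (eGFP) knocked into GATA2, a zinc-finger transcription factor gene of blood progenitors. All cells were differentiated in culture and sorted as CD34+CD31+CD43-, markers of endothelium and early blood precursors before the blood cell protein CD43 appears. The GFP-positive fraction (2 libraries) is labelled eGFP+ hemogenic endothelium, the endothelium that gives rise to blood cells, and the GFP-negative fraction (2 libraries) is labelled eGFP- endothelial cells. The titles of all 4 libraries also carry Cre and HE, and the source name of all 4 is hemogenic endothelium, so the labels of the GFP-negative fraction do not match each other. What Cre was used for, the day of differentiation, and whether the replicates came from separate cultures or from 1 clone is not stated in the labels. P-values therefore measure only the spread between these libraries, which may be technical.

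TAL1 is a basic helix-loop-helix (bHLH) protein that binds E-box DNA as a partner of an E protein, and LYL1 is its close paralog. LMO2 has no DNA-binding part of its own: it bridges TAL1 and a GATA factor to LDB1, which dimerises and brings distant DNA sites together. ID proteins, which lack the basic part, hold E proteins in pairs that cannot bind DNA. In mice, early blood formation depends on TAL1, LMO2 and LDB1, and TAL1 and LYL1 can stand in for each other in later blood stem cells.

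Levels are in TPM, a length-corrected share of all transcripts in a library, so levels of different genes within a library can be compared. Values of single libraries are given first, then the mean ± SD over n = 2 libraries, then the log2 fold change (GFP-positive minus GFP-negative, on log2(TPM + 1)) with its standard error (SE) from limma, a linear model fitted to 15425 tested genes. Read depth is unknown, because TPM keeps no read totals. Across the 4 libraries, 14730 to 15109 genes had at least 1 TPM. The labelled cell type was checked on 13 endothelial markers: CDH5, the gene of VE-cadherin, had at least 314 TPM and KDR, a receptor of vascular endothelial growth factor, at least 614 TPM in every library. Others were low in GFP-positive cells: CLDN5, the gene of a tight junction protein, had 1.09 and 0 TPM (7.46 and 5.36 TPM in GFP-negative cells), ROBO4, a vascular guidance receptor gene, had 6.54 and 9.71 TPM (25.50 and 27.86), and EMCN, the gene of endomucin, had 18.84 and 11.97 TPM (193.67 and 91.45). In bulk RNA, fewer cells with a transcript and less transcript per cell cannot be told apart.

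Of the 9 genes, 0 passed an adjusted p of 0.05 in limma, higher or lower, against 0.447% of all tested genes. At an unadjusted p under 0.05 there were 3 genes (TAL1, LDB1 and LDB2), against 14.1% of all tested genes. The only gene of the 9 with a log2 fold change of 1 or more in size was LDB2, which had 118 TPM in GFP-positive and 239 TPM in GFP-negative cells, against 12.4% of all tested genes with a change of that size. The libraries of the fractions did not overlap for 5 of the 9 genes (55.6%), against 44.3% of all tested genes. Of these 5, LDB1 and TCF12 were higher in both GFP-positive libraries (22.8% of all tested genes were) and TAL1, LDB2 and TCF3 were lower in both (21.5%). These shares lie near the background for so few genes. In simulated data with the means and spread of these libraries, changes were put only into genes well above the filter. Of those with a log2 change of 1 in size, 6.85% passed. Thus 0 of 9 passing does not show equal levels. The median log2 fold change was -0.13 over the 9 genes and 0.02 over all tested genes. Leaving out GFP-positive replicate 1 gave a median of -0.38 and leaving out the other GFP-positive library gave 0.07, so its sign rests on single libraries.

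**Figure D1:**
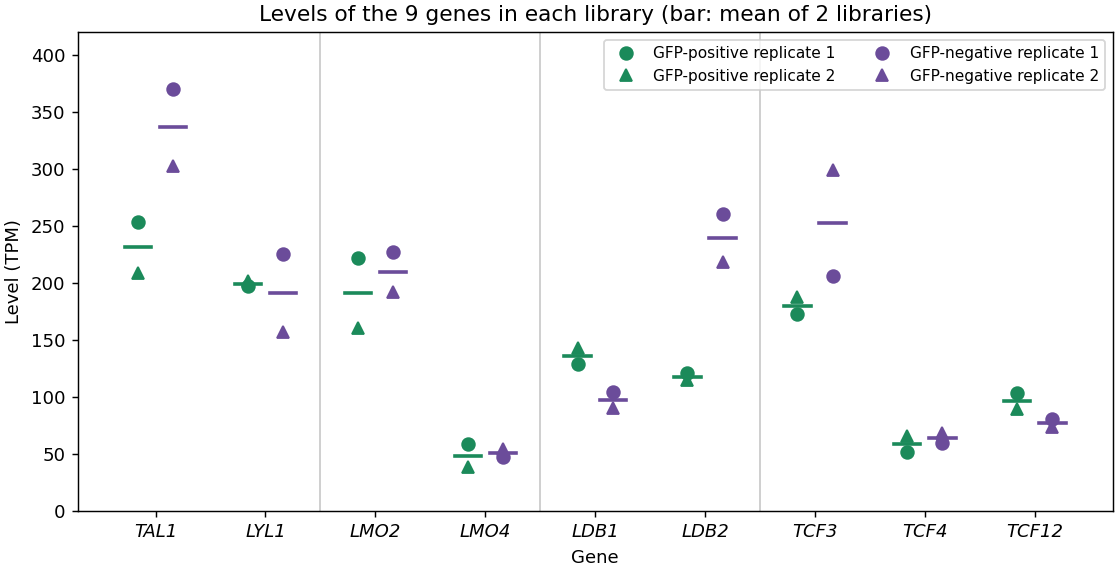
Level in TPM (vertical axis) of each of the 9 genes (horizontal axis) in each library, with GFP-positive libraries in green and GFP-negative libraries in purple, replicate 1 as a circle, replicate 2 as a triangle and the mean of 2 libraries as a bar. All values lie between 38.2 and 370 TPM, and the widest separation of the fractions is that of LDB2.

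Every one of the 9 genes was detected in every library, with values from 38.2 TPM (LMO4) to 370 TPM (TAL1). In GFP-negative cells TAL1 stood above 97.2% of tested genes and LMO4, the lowest, above 73.9%. In GFP-positive cells the corresponding shares were 95.2% and 72.3%. TAL1 had the highest mean of the 9 in both fractions and did not overlap the next gene in either, although LMO2 in GFP-positive replicate 1 (221.65 TPM) exceeded TAL1 in GFP-positive replicate 2 (208.99 TPM). In GFP-positive cells the next were LYL1, LMO2 and TCF3 (199, 191 and 180 TPM), and each overlapped its neighbour in that order. LDB1, LDB2 and TCF12 followed without overlap (136, 118 and 96.3 TPM), and TCF4 and LMO4 were last with overlapping libraries. In GFP-negative cells the order after TAL1 was TCF3, LDB2, LMO2 and LYL1 (253, 239, 210 and 191 TPM), again with overlap between neighbours. LDB1, TCF12, TCF4 and LMO4 followed without overlap (97.0, 76.6, 63.8 and 50.6 TPM). LDB2 thus ranked 3 of 9 in GFP-negative cells and 6 of 9 in GFP-positive cells, while LDB1 ranked 6 and 5.

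The DNA-binding pair came first. TAL1 (ENSG00000162367; chromosome 1, 47216290 to 47232220, minus strand; positions here and for the other genes are of GRCh38, GENCODE v29) had 253.73 and 208.99 TPM in the GFP-positive libraries and 370.26 and 302.71 TPM in the GFP-negative libraries. Both GFP-positive values lay below both GFP-negative values, with means of 231 ± 31.6 and 337 ± 47.8 TPM. The log2 fold change was -0.54 ± 0.17 (SE; 95% interval -0.95 to -0.12; limma adjusted p = 0.25). LYL1 (ENSG00000104903; chromosome 19, 13099033 to 13103161, minus strand) had 196.98 and 201.84 TPM in GFP-positive and 225.06 and 156.46 TPM in GFP-negative cells. The GFP-negative libraries lay on either side of the GFP-positive ones, which were nearly equal to each other. Its log2 fold change of 0.09 ± 0.20 (95% interval -0.40 to 0.58; limma adjusted p = 0.905) turned to -0.17 without GFP-negative replicate 2. The ratio of TAL1 to LYL1 was 1.29 and 1.04 in the GFP-positive libraries and 1.65 and 1.93 in the GFP-negative libraries. TAL1 was therefore the more abundant of the paralogs in every library, by the least in GFP-positive replicate 2.

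For TAL1 and LYL1, 1 promoter window each is shown, because both windows hold a pair of GATAA matches, the core letters bound by GATA factors. They were also chosen because GATA2 is the gene by whose reporter the cells were sorted. Another TAL1 window (chr1:47231666-47231965), of a second start site, holds 0 GATAA and 0 CANNTG matches. Each window runs from 250 bases before to 50 bases after the RefSeq start site (GRCh38.p14), and is written 5′ to 3′ on the gene's strand. Capitals mark GATAA matches, all 4 of them in reverse complement.
TAL1, chr1:47232286-47232585, minus strand: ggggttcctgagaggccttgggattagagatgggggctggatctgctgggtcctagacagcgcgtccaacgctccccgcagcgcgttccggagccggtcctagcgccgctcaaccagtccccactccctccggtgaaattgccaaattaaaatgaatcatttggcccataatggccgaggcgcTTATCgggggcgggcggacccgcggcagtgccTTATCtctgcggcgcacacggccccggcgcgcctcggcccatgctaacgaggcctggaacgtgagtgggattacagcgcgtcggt
LYL1, chr19:13102809-13103108, minus strand: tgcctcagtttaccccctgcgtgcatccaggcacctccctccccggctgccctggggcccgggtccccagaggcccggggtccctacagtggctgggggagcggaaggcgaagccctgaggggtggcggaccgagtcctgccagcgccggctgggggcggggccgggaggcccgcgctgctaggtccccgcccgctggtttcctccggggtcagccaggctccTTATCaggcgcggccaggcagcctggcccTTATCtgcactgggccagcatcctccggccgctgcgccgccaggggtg

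The matches begin at bases 184 and 216 of the TAL1 window and at bases 224 and 253 of the LYL1 window, counted from 1 at the 5′ end. Windows were matched by symbol for 7 of the 9 genes, all but LMO2 and LDB2. There were 22 windows in all, since a gene can have several start sites, and TCF4 had the most. GATAA, on both strands, was in 4 of the 22 windows, against 22.7% of 35116 windows of the same length over all genes. At least 2 matches were in 2 of the 22, those printed, against 4.80% of all windows. The E-box letters CANNTG, which read the same on both strands, were in 12 of the 22 windows, against 68.7% of all. They were found once in the TAL1 window shown and not in the LYL1 window, and 0 matches of the motifs overlapped. CTG followed at 8 or 7 bases by GATAA, the joint arrangement known for the TAL1 complex with a GATA factor, was in 0 of the 22 windows, against 0.589% and 0.669% of all. A match is a description of letters in the window and shows no binding. Levels of GATA2 were 302.27 and 384.62 TPM in GFP-positive and 80.16 and 87.28 TPM in GFP-negative cells, and GATA2 rose in GFP-positive cells (log2 fold change 2.01 ± 0.17; limma adjusted p = 0.0316). As the reporter sits in GATA2, that difference and the sort are not independent. The ratio of GATA2 to TAL1 was 1.19 and 1.84 in GFP-positive and 0.216 and 0.288 in GFP-negative libraries. TAL1 values were lower, and LYL1 values overlapped, in the libraries in which GATA2 was higher. Whether GATA2 acts on either gene was not tested.

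Of the LIM-only adaptors, LMO2 joins TAL1 to LDB1, and LMO4 is a widely expressed relative that also binds LDB1. LMO2 (ENSG00000135363; chromosome 11, 33858576 to 33892289, minus strand) had 221.65 and 160.80 TPM in GFP-positive and 227.08 and 192.13 TPM in GFP-negative cells. The fractions overlapped, and the GFP-positive libraries were further apart (0.46 on the log2 scale) than the fractions (log2 fold change -0.15 ± 0.20; limma adjusted p = 0.826). LMO4 (ENSG00000143013; chromosome 1, 87328468 to 87348923, plus strand) had 58.14 and 38.19 TPM against 46.91 and 54.20 TPM. Its GFP-positive libraries showed the widest replicate gap of the 9 genes (0.59), around a difference of -0.10 ± 0.26 (limma adjusted p = 0.925). Without GFP-positive replicate 2 both values turned positive (0.09 for LMO2 and 0.20 for LMO4), and LMO4 was at 0.01 without GFP-negative replicate 2. The 95% intervals, -0.63 to 0.34 for LMO2 and -0.73 to 0.54 for LMO4, leave changes of either sign, so these data do not show that the fractions have equal LMO levels. LMO2 was the more abundant in every library, at 3.81 and 4.21 times LMO4 in GFP-positive and 4.84 and 3.54 times in GFP-negative libraries, with overlap between the fractions.

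The LDB pair holds both ends of the range of log2 fold changes of the 9 genes. LDB1 is the dimerising cofactor of the complex, and LDB2 is a paralog that binds LIM domains in the same way. LDB2 (ENSG00000169744; chromosome 4, 16501541 to 16898809, minus strand) had 120.99 and 114.34 TPM in GFP-positive and 260.12 and 217.94 TPM in GFP-negative cells. Its mean was 2.03-fold higher in GFP-negative cells (239 ± 29.8 against 118 ± 4.70 TPM), and every GFP-negative value was above every GFP-positive one by a margin wider than either replicate gap. The log2 fold change was -1.01 ± 0.16 (95% interval -1.39 to -0.63) and did not pass (limma adjusted p = 0.066). It passed when only genes with a mean above 5 TPM were tested (limma adjusted p = 0.0463). It did not pass with a pseudocount of 0.1 TPM, no filter or no variance trend (limma adjusted p = 0.0925, 0.109 and 0.226). With each library left out in turn, it lay between -1.14 and -0.88, with limma adjusted p from 0.0999 to 0.263.

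LDB1 (ENSG00000198728; chromosome 10, 102107560 to 102120453, minus strand) lay the other way, at 128.49 and 143.03 TPM in GFP-positive and 103.91 and 90.15 TPM in GFP-negative cells. Both GFP-positive values exceeded both GFP-negative values (136 ± 10.3 against 97.0 ± 9.73 TPM; log2 fold change 0.48 ± 0.17; 95% interval 0.08 to 0.89), and the difference did not pass (limma adjusted p = 0.281). The ratio of LDB1 to LDB2 was 1.06 and 1.25 in the GFP-positive libraries and 0.399 and 0.414 in the GFP-negative libraries. LDB1 made up 51.5% and 55.6% of the summed LDB level in GFP-positive libraries, against 28.5% and 29.3% in GFP-negative libraries. The sum itself was 249.5 and 257.4 TPM against 364.0 and 308.1 TPM. The ratio itself was not tested.

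**Figure D2:**
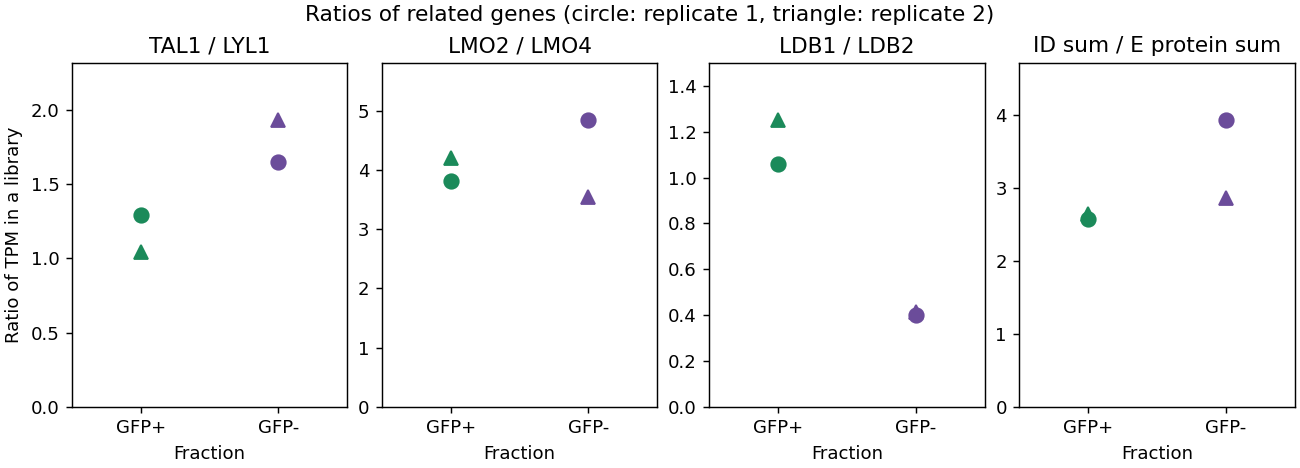
Ratio of TPM values within a library (vertical axes, each from 0) for TAL1 to LYL1, LMO2 to LMO4, LDB1 to LDB2 and the ID sum to the E protein sum, by fraction (horizontal axes), with replicate 1 as a circle and replicate 2 as a triangle. LDB1 exceeds LDB2 in both GFP-positive libraries (1.06 and 1.25) and is below it in both GFP-negative libraries (0.399 and 0.414), while LMO2 to LMO4 overlaps.

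Endothelial markers were lower together with LDB2. All 13 markers had log2 fold changes below 0 (median -1.02, 0 of 13 passing), and their summed level was 4049 to 4246 TPM in GFP-positive and 6155 to 6645 TPM in GFP-negative libraries, with none of them at 0 in all libraries. The sums of erythroid, mesenchymal, megakaryocytic, pluripotent and cardiac markers lay the other way. Erythroid markers summed to 250.8 to 452 TPM in GFP-positive and 53.0 to 56.3 TPM in GFP-negative libraries. All 10 tested of 15 were above 0, 1 of them passing, with HBB and AHSP at 0 in all 4 libraries. Of these 10, HBA2 and ALAS2 overlapped between the fractions, and HBG1 reached the 1 TPM of the filter only in GFP-positive libraries. The background for the counts passing in each marker list was 0.123% of all tested genes higher and 0.324% lower. Smooth muscle and mesenchymal markers summed to 1505 to 1602 TPM against 727 to 958 TPM (7 of 9 above 0, 0 passing), and megakaryocytic markers to 172 to 217 TPM against 99.6 to 113 TPM (6 of 7 tested of 9 above 0, 0 passing; PPBP at 0). Pluripotent markers, mostly LIN28A, summed to 471 to 576 TPM against 394 to 397 TPM. Of these, 2 of 5 tested of 6 were above 0 and 0 passed. Cardiac genes, described below, summed to 472 to 606 TPM against 203 to 207 TPM. Myeloid markers (20.4 to 52.1 against 22.4 to 25.6 TPM; ELANE at 0) and lymphoid markers (3.78 to 5.72 against 5.0 to 11.4 TPM; MS4A1 and RAG2 among those at 0) overlapped. The CD34+CD31+CD43- gate is meant to leave out blood cells that carry CD43 and mesenchymal cells that lack CD31. The part of these cell types in the differences of LDB2, LDB1 or TAL1 was not tested.

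The E proteins are the widely expressed bHLH partners of TAL1 and LYL1. TCF3 encodes E12 and E47, TCF12 encodes HEB, and TCF4 encodes E2-2, and gene-level TPM does not separate the isoforms. TCF3 (ENSG00000071564; chromosome 19, 1609290 to 1652605, minus strand) had 172.70 and 187.44 TPM in GFP-positive and 206.24 and 299.19 TPM in GFP-negative cells. The fractions did not overlap, but the GFP-negative libraries were further apart (0.53) than the fractions (log2 fold change -0.46 ± 0.20; 95% interval -0.96 to 0.03; limma adjusted p = 0.387). The difference was -0.20 without GFP-negative replicate 2, whose value is the highest, and -0.73 with the other GFP-negative library left out.

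TCF12 (ENSG00000140262; chromosome 15, 56918623 to 57299281, plus strand) was higher in both GFP-positive libraries, at 103.06 and 89.52 TPM against 80.11 and 73.16 TPM. Its log2 fold change was 0.32 ± 0.17 (95% interval -0.10 to 0.75; limma adjusted p = 0.474). TCF4 (ENSG00000196628; chromosome 18, 55222331 to 55664787, minus strand) overlapped between the fractions, at 51.25 and 65.76 TPM against 59.52 and 68.07 TPM. Its log2 fold change of -0.13 ± 0.21 (95% interval -0.65 to 0.38; limma adjusted p = 0.859) turned to 0.05 without GFP-positive replicate 1. TCF3 was the most abundant E protein gene in every library, with 52.8% and 54.7% of the summed E protein level in GFP-positive and 59.6% and 67.9% in GFP-negative libraries. TCF12 held 31.5% and 26.1% against 23.2% and 16.6%, while the share of TCF4 (15.5% to 19.2%) overlapped. The summed level was 327 and 343 TPM in GFP-positive and 346 and 440 TPM in GFP-negative libraries, so 1 GFP-negative library was close to the GFP-positive ones.

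**Figure D3:**
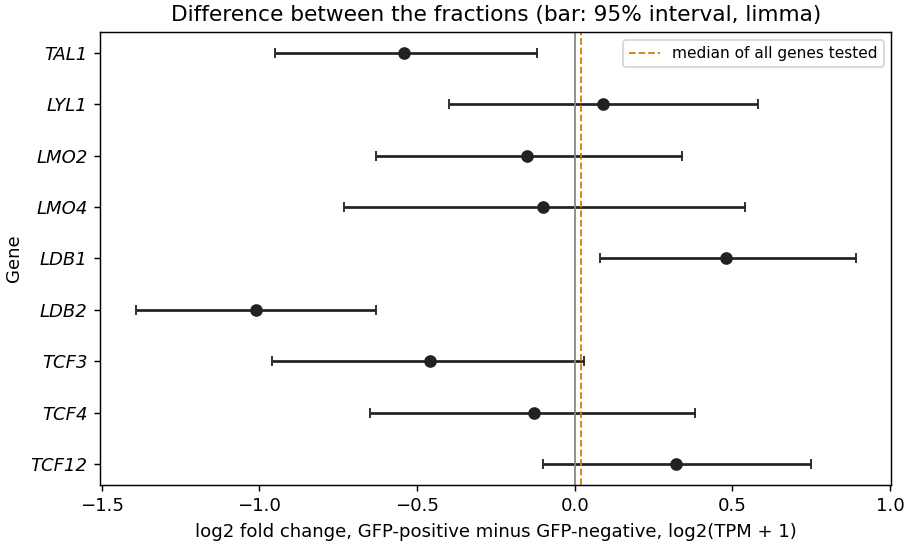
Log2 fold change on log2(TPM + 1), GFP-positive minus GFP-negative (horizontal axis), of each of the 9 genes (vertical axis), with the unadjusted 95% interval from limma and a dashed line at the median of all genes tested (0.02). The intervals of TAL1, LDB1 and LDB2 leave out 0, and none of the 9 passes after adjustment over 15425 genes.

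ID proteins are the inhibitors of E proteins. Of the 4 ID genes, 0 rose (0.123% of all tested genes did) and 2 fell (0.324%), with a median log2 fold change of -0.93. ID1 had 178.85 and 194.64 TPM against 410.09 and 422.31 TPM and fell (-1.15 ± 0.13; limma adjusted p = 0.0413), as did ID3, at 247.41 and 289.74 TPM against 674.97 and 612.73 TPM (-1.26 ± 0.14; limma adjusted p = 0.0403). ID2 lay the other way, at 410.05 and 417.74 TPM against 268.48 and 215.56 TPM, which missed the threshold (limma adjusted p = 0.107), and ID4 had at most 8.31 TPM. ID2 thus made up 48.8% and 46.1% of the summed ID level in GFP-positive libraries and 19.8% and 17.1% in GFP-negative libraries. The ID sum was 840 and 907 TPM against 1359 and 1259 TPM. Per E protein transcript there were 2.57 and 2.65 ID transcripts in GFP-positive and 3.93 and 2.86 in GFP-negative libraries, an order that rests on a narrow gap to GFP-negative replicate 2. Leaving out replicate 1 of either fraction left 0 ID genes that passed, and leaving out replicate 2 of either fraction left 1. With a pseudocount of 0.1 TPM, without the filter on low values or without the variance trend in limma, 0 genes of any list passed, and 0 of all tested genes.

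**Figure D4:**
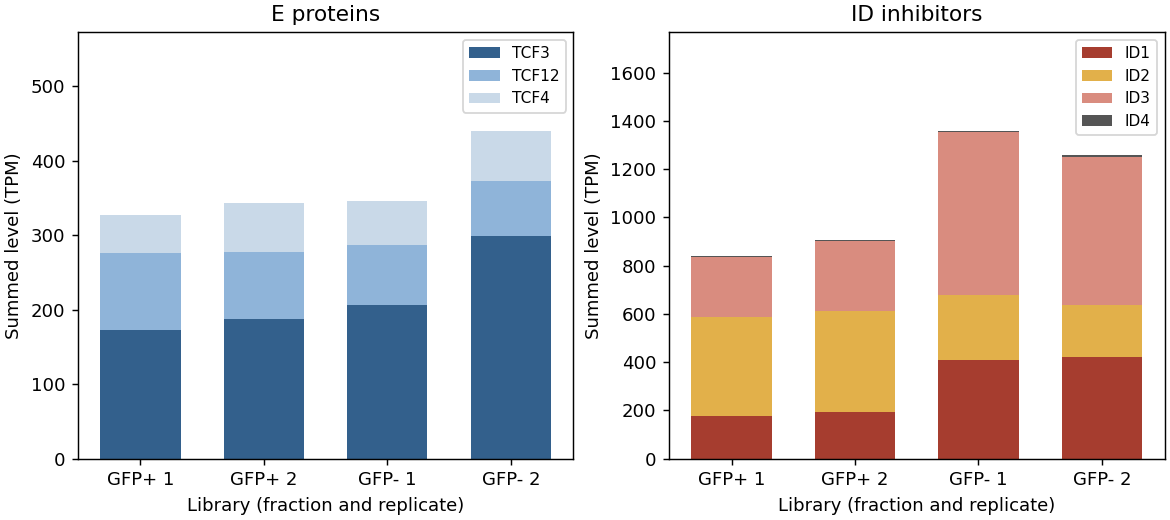
Summed level in TPM (vertical axes, from 0) of the E protein genes (left) and of the ID genes (right) in each library (horizontal axes, fraction and replicate), stacked by gene. The E protein sums run from 327 to 440 TPM, and the ID sums are 840 and 907 TPM in GFP-positive and 1359 and 1259 TPM in GFP-negative libraries, with ID2 the largest ID share in GFP-positive libraries.

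Other partners of the complex were taken from a list of 24 genes, of which 22 were tested. Of these, 1 rose, against 0.123% of all tested genes, 0 fell, against 0.324%, and 21 did not pass. The gene that rose was GATA2, whose reporter was used for the sort. The median log2 fold change was 0.09, and leaving out GFP-negative replicate 1 gave 0.20, leaving out GFP-positive replicate 2 gave 0.14, and leaving out GFP-negative replicate 2 gave 0.04. Of the 22, 12 lay above 0 and 10 below. GATA1, the erythroid GATA factor of the complex, had 17.57 and 8.40 TPM against 3.08 and 0 TPM (limma adjusted p = 0.212). KLF1 had 30.93 and 22.43 TPM against 5.05 and 3.66 TPM (2.36 ± 0.38; limma adjusted p = 0.069). RUNX1 had 198.45 and 328.06 TPM against 96.50 and 133.92 TPM (1.16 ± 0.28; limma adjusted p = 0.159). CBFA2T3, the ETO2 corepressor that joins the complex in blood precursors, had 65.63 and 70.68 TPM against 24.15 and 23.67 TPM and missed the threshold (1.47 ± 0.21; limma adjusted p = 0.056). SSBP3 and SSBP4, single-stranded DNA-binding proteins that protect LDB1 from breakdown, were near even, with log2 fold changes of -0.03 ± 0.14 and 0.19 ± 0.14, while SSBP2 was uneven between replicates (46.39 and 77.33 against 140.19 and 63.95 TPM). RLIM, the ubiquitin ligase that marks LDB proteins for breakdown, had 22.2 ± 1.46 against 19.2 ± 0.495 TPM (limma adjusted p = 0.821). The corepressor genes KDM1A and HDAC1 had log2 fold changes of 0.38 ± 0.17 and 0.02 ± 0.21, and the coactivator gene EP300 had 0.15 ± 0.21, none of which passed. The endothelial ETS factor ERG had 63.35 and 64.51 TPM against 157.38 and 108.97 TPM, short of the threshold (limma adjusted p = 0.122). The paralogs TAL2, LMO1 and LMO3 had 0 TPM listed for both GFP-positive libraries and at most 2.69 TPM in a GFP-negative library.

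Few other tissue-specific partners of E proteins or LDB proteins were present. Of 33 further bHLH genes in the tables, TAL2 among them, 10 were tested and 20 were listed at 0 in all 4 libraries, MYOD1 and NEUROD1 among them. The 33 summed to 20.2 to 47.0 TPM per library, and none of the 10 passed. HAND1, a bHLH factor of heart and extraembryonic mesoderm, had the highest log2 fold change, with 26.42 and 9.97 TPM against 2.97 and 2.51 TPM (limma adjusted p = 0.162). Of 12 LIM homeodomain genes, which bind LDB proteins in other tissues, 3 were tested, 0 passed and 5 were listed at 0 in all libraries. LHX6, the lowest of them in log2 fold change, had 4.89 and 3.47 TPM against 23.35 and 13.30 TPM (limma adjusted p = 0.153), and LHX4, the highest, had at most 2.67 TPM.

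Blood genes known to be bound by the complex in blood cells formed a further list. Of its 25 genes 21 were tested, of which 4 rose (background 0.123%), 1 fell (background 0.324%) and 16 did not pass. The median log2 fold change was 2.18, but 1.22 with a pseudocount of 5 TPM and 1.37 without the filter on low values. The value of 2.18 is that of HBG1 (5.45 and 5.03 against 0.90 and 0 TPM). HBG1 reached the 1 TPM of the filter only in GFP-positive libraries, so its direction was set by the filter. HBG2, a fetal globin gene, GFI1, a repressor of early blood development, NFE2, an erythroid and megakaryocytic factor, and MYB, a factor of blood progenitors, rose by log2 fold changes of 4.36, 2.33, 2.92 and 2.35. KIT, the stem cell factor receptor gene, fell by 2.35 on the log2 scale. Of those that did not pass, HBA1 was highest (21.12 and 24.67 against 0 and 1.55 TPM), and HHEX, a homeobox factor of blood and endothelium, was lowest (99.46 and 74.90 against 154.66 and 152.71 TPM). HBA1 and HBG2 each have a near-identical neighbour gene, so their shares of reads are uncertain. Both are also erythroid markers, whose sums are given above. The sort was for cells without CD43, and the part of erythroid cells in these calls was not tested. The number called fell to 2 when either GFP-positive library was left out, and also to 2 when GFP-negative replicate 1 was.

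Cardiac genes, which TAL1 is known to hold low in mouse hemogenic tissue, formed another list. Of 21 such genes 15 were tested, of which 1 rose (background 0.123%), 0 fell (background 0.324%) and 14 did not pass. Of the 15, 12 lay above 0. Among these 12, MYL7, HAND2, PDGFRA and ACTN2 overlapped between the fractions. MYH6 reached the 1 TPM of the filter only in GFP-positive libraries, so its direction was set by the filter. The median log2 fold change of the 15 was 0.43, which is the value of PDGFRA. This median rested on single libraries and on the settings: leaving out GFP-positive replicate 2 gave 0.99 and leaving out GFP-negative replicate 1 gave 0.91, a mean above 5 TPM gave 0.94 and a pseudocount of 5 TPM gave 0.26. MYL4, a myosin light chain of embryonic muscle and atrium, rose, at 365.22 and 313.74 TPM against 74.75 and 97.17 TPM (1.98 ± 0.18; limma adjusted p = 0.0316). HAND1, given above, was the highest of those that did not pass, and NKX2-5, a cardiac homeobox factor, was the lowest (8.59 and 7.49 against 18.42 and 12.71 TPM). The sarcomere gene MYL2, the progenitor factor gene ISL1 and the calcium channel gene RYR2 were listed at 0 in all 4 libraries. A link of these differences to TAL1, and the part of other cell types in them, was not tested.

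**Figure D5:**
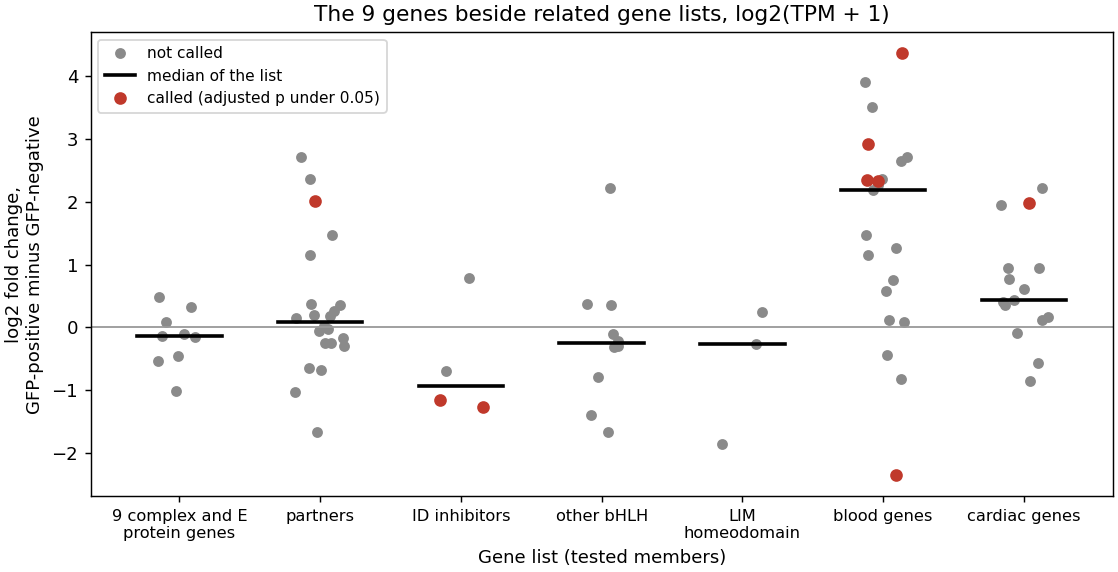
Log2 fold change on log2(TPM + 1), GFP-positive minus GFP-negative (vertical axis), of the tested genes of each list (horizontal axis), with called genes in red, others in grey and the median of each list as a black line. The 9 genes lie between -1.01 and 0.48 with 0 called. The blood genes reach 4.36, with 4 called higher and 1 called lower, against 0.123% and 0.324% of all tested genes.

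Genes with the most similar profile were sought among 9946 others with a mean of at least 10 TPM, by the Euclidean distance between log2(TPM + 1) values over the 4 libraries, each gene centred on its own mean. For TAL1 they were PAGR1, H1F0 and SIRPA (distances 0.023, 0.025 and 0.043). For LDB1, the highest of the 9 in log2 fold change, they included PTPLA and VPS41 (0.032 and 0.053). For LDB2, the lowest, they were MEX3B, TSPAN13 and NDUFA4L2 (0.042, 0.071 and 0.088). With 4 libraries, close matches among so many genes are common, so these are descriptions only.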

How the data were processed

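Total RNA of 4 libraries was taken up in Trizol and prepared with an Illumina TruSeq RNA kit, per the labels' protocols. The authors deposited a table of TPM values for each library; the headers name the library only, and the unit was read from the values, which sum to 996323.64 to 997292.9, and from RSEM in the submitters' processing notes. These notes also name Bowtie and the builds hg19 and mm10, without roles. The annotation, the parameters and any use of strand are not stated there. By GENCODE v29, exons of TAL1, LDB2 and TCF4 overlap antisense genes, whose reads cannot be told apart if strand was not used. Gene positions are those of GENCODE v29 on GRCh38, matched by identifier, not the authors' build. Promoter windows are RefSeq's (GRCh38.p14).

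Limma 3.58.1 (R 4.3.3) with a variance trend was fitted to log2(TPM + 1) of genes that reached 1 TPM in 2 or more libraries. Tests were two-sided, with Benjamini-Hochberg adjustment over all tested genes and a threshold of 0.05. For low genes, a fold change on this scale is smaller than the change in TPM. Fractions and replicate numbers came from the titles. The script was tested on simulated data with known changes. Of genes with a log2 change of 1 in size, 6.85% passed, and with a change of 2, 67.7%. Changes were put only into genes well above the filter, so these shares do not cover low genes. The 9 genes and the lists were chosen with earlier results of these data known. All 9 genes are named. From each list the text names every gene that passed and the highest and lowest of the rest. Any partner or inhibitor gene may be named. Some other genes are named because their fractions overlapped or because the filter set their direction. PECAM1, the gene of CD31, is not analysed here. A gene with a profile like that of LDB1 and a lymphoid marker are not reported here. Alternatives were other pseudocounts, filters and scalings, no variance trend, a block for the replicate number and leaving out each library in turn.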

Additional observations from a re-analysis of the deposited data

How the results depend on the processing

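Of 108 values of the 9 genes under 12 alternatives, 101 kept their direction and their side of the threshold, 2 (LDB2) passed in addition and 5 changed sign, all on leaving out 1 library: TCF4 (0.05; range with a library left out -0.31 to 0.05), LMO2 (0.09; -0.38 to 0.09), LMO4 (0.20 and 0.01; -0.39 to 0.20) and LYL1 (-0.17; -0.17 to 0.35). The cause was not tested. The number of all genes called was 0 with a pseudocount of 0.1 TPM, without the filter and without the variance trend, 164 with a mean above 5 TPM, and 18 to 65 with a library left out. With a mean above 5 TPM, where fewer genes are tested, 1 of the 9 genes (LDB2) and 3 partners passed, and the medians were 1.01 for bHLH and -1.06 for LIM homeodomain genes. With the pseudocount of 0.1, no filter or no trend, 0 partners, 0 inhibitors, 0 blood and 0 cardiac genes passed. The median was -0.78 for inhibitors and 1.22 for blood genes with a pseudocount of 5 TPM, and 1.37 for blood genes without the filter. With a library left out, the median ran from -0.38 to 0.07 for the 9 genes, -1.06 to -0.79 for inhibitors, -0.48 to 0.34 for bHLH, -0.87 to 0.36 for LIM homeodomain, 1.58 to 2.33 for blood, 0.30 to 0.99 for cardiac and 0.04 to 0.20 for partner genes, and 0 to 1 inhibitors and 2 to 5 blood genes passed. A group left with 1 library was assumed to vary like the other.

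With the replicate number as a block, 596 of all genes were called, 1 of the 9 (LDB2, limma adjusted p = 0.00642), 6 partners, 3 inhibitors, 1 bHLH, 1 LIM homeodomain, 14 blood and 3 cardiac genes. The labels tie the numbers to no shared culture, and same-numbered libraries deviated together only weakly (r = 0.0719 over 15425 genes). The other row of a repeated symbol was not run, since none of the 9 symbols is repeated. Read depth, unknown here, limits the values of low genes.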
